A study of Mus musculus with 14 samples.

Results

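The genes described here encode the core of the SIN3 corepressor, the class I histone deacetylases HDAC1 and HDAC2 that work with it, and the related HDAC3. They were taken by name and number 10 of the 54446 gene identifiers in the deposited tables: the scaffolds *Sin3a* and *Sin3b*, the deacetylases *Hdac1*, *Hdac2* and *Hdac3*, and the accessory subunits *Sap30*, *Sap130*, *Suds3*, *Ing1* and *Ing2*. All 10 were found once, and all 10 passed the filter on low values. SIN3 proteins bind no DNA themselves. They are recruited by transcription factors and chromatin proteins, among them TET1, and hold histone deacetylases that remove acetyl groups from histone tails, a change linked to lower transcription. In embryonic stem (ES) cells SIN3A, HDAC1 and HDAC2 are known to be needed for normal growth.

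Bulk RNA-seq was made from E14 mouse ES cells, a line that was cultured in serum and LIF on gelatin without feeder cells. Cells were left untreated (0 h) or paused with 200 nM of INK128, which blocks the growth kinase mTOR (mTOR inhibition, mTORi). Wild-type (WT) cells were taken before treatment and after 24, 72 and 144 h, *Tet1/2* double-knockout (DKO) cells before treatment and after 24 and 72 h, and each of the 7 groups had 2 libraries. The DKO cells came from the same E14 line by Cas9 cutting of *Tet1* and *Tet2* and sorting of single cells into clones, so that a DKO library differs from WT also by its clonal origin.

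The deposited values are TPM, a transcript abundance corrected for gene length and scaled to the same sum in every library. Each RNA extraction started from 200000 sorted cells, ERCC standards were used, and libraries were made from 500 ng of total RNA. The paper does not say at which step the standards were added. Spike-in normalized TPM were obtained by multiplying each library with 1 factor, recovered from the study's normalized table. Both scales are given below. Plain TPM show the share of a gene in the RNA of a library. Spike-in normalized TPM show its level per cell only if the standards were added in proportion to cells and the factor holds. In bulk RNA, fewer cells that express a gene and less RNA in each cell cannot be told apart. Changes are log2 differences of (TPM + 1) with their SE from 1 limma fit of all 14 libraries and 18232 genes, and a gene was called where its Benjamini-Hochberg adjusted p was under 0.05. The read depth is not part of TPM, so counting error is unknown.

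The libraries had between 28306 and 29927 genes above 0. All 6 ES cell markers checked stood at 124.6 TPM or higher in every library. The summed TPM of 5 fibroblast markers lay between 1.29 and 17.7, that of 4 trophectoderm markers between 5.46 and 63.0, that of 5 primitive endoderm markers between 5.27 and 113, and that of 3 neural markers between 5.35 and 17.4. The primitive endoderm sum was highest in the WT 24 h libraries (60.8 to 113, against 7.88 to 20.8 at 0 h), and in DKO it was 16.4 to 47.5 at 24 h against 8.08 to 23.3 at 0 h. The trophectoderm sum at 24 h was 25.2 to 63.0 in WT and 10.9 to 32.1 in DKO. The part of these sums in the changes below was not tested. *Tet2* was at 20.7 ± 2.14 plain TPM (SD, n = 2) in DKO against 97.8 ± 2.62 in WT at 0 h. *Tet1* was at 149 ± 3.45 against 194 ± 4.43, and gene-level TPM cannot show whether the targeted exons were lost. The median of all tested genes moved with the factors. Against 0 h it was −0.33 (24 h), −0.33 (72 h) and −0.83 (144 h) on the log2 scale in WT, and −0.49 (24 h) and −0.12 (72 h) in DKO, while in plain TPM it stayed between −0.0077 and 0.14. The calls below test a change against 0 and not against this median. A gene called lower thus need not have fallen more than most genes.

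*Sin3a* lies on chromosome 9 from base 57072040 to 57128366 on the plus strand (mm10, ENSMUSG00000042557.14), and *Sin3b* on chromosome 8 from 72723285 to 72758201 on the plus strand (ENSMUSG00000031622.16). *Hdac1* lies on chromosome 4 from 129516104 to 129542713 on the minus strand (ENSMUSG00000028800.15) and *Hdac2* on chromosome 10 from 36974544 to 37001889 on the plus strand (ENSMUSG00000019777.16). The values are sums over each whole gene. The antisense genes *2700012I20Rik* and *Man2c1os* overlap *Sin3a*, *9530046B11Rik* overlaps *Suds3* and *AA386476* overlaps *Ing2*. Their highest plain TPM were 1.69, 1.28, 0.167 and 3.001, far below *Sin3a* and *Suds3*, whereas *Ing2* itself stood at only 8.28 to 11.1. Whether the counting used strand is not given in the sources used here.

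The promoters of the scaffold pair are shown because *Sin3a* and *Sin3b* moved apart under mTORi. RefSeq windows (GRCm38.p6) reach from 250 bases before a transcript start to 50 bases after it. Windows were given for 7 of the 10 genes, and *Hdac1*, *Hdac3* and *Sap130* had none. *Sin3a* had 2 windows, at chr9:57071790-57072089 and chr9:57076126-57076425, and *Sin3b* had 1, at chr8:72723020-72723319, all on the plus strand. Capitals mark matches, on either strand, to the GC box GGGCGG, the CCAAT box CCAAT and the TATA box TATAAA:
Sin3a, first start: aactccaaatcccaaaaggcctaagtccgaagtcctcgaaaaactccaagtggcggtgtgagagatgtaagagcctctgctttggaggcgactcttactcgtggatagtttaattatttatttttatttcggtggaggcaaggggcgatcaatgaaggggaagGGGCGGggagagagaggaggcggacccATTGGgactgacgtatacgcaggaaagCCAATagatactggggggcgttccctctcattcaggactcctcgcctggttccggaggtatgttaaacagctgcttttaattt
Sin3a, second start: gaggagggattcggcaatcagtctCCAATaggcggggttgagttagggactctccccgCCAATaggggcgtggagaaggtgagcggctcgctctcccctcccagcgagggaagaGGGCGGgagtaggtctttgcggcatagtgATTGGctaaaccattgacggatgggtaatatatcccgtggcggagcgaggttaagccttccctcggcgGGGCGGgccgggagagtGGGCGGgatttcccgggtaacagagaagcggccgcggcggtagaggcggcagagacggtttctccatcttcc
Sin3b: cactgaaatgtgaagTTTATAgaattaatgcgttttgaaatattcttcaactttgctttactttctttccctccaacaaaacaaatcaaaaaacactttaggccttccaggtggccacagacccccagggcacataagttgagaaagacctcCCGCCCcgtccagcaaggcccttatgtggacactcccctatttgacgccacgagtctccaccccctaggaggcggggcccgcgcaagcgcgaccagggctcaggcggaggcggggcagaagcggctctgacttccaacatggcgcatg
Both *Sin3a* windows held GC boxes (1 and 3) and CCAAT boxes (2 and 3), and no 2 matches overlapped. The *Sin3b* window held 1 GC box, no CCAAT box and, 235 bases before the start, 1 TATA box on the minus strand. Of all 32851 windows, 35.7% held a GC box, 37.4% a CCAAT box and 13.6% a TATA box. The E-box CACGTG (7.15% of windows), the YY1 motif AAGATGGC (2.75%), the ETS motif CCGGAAG (8.86%) and the NRF1 motif GCATGCGC (2.71%) were searched too and were not found in these 3 windows. A match is a string of letters and no evidence of binding.

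In untreated WT cells *Hdac1* was the highest of the 10 genes, at 447 spike-in normalized TPM, followed by *Hdac2* at 293. *Sin3a* (186) and *Sap30* (182) came next and their libraries overlapped, as did those of *Suds3*, *Sap130* and *Hdac3* (105, 101.007 and 97.4). *Sin3b* stood between these sets at 132, and *Ing1* (78.0) and *Ing2* (18.8) were lowest. TPM are corrected for length, so these levels can be compared between genes. Averaged over the 14 libraries, *Hdac1* stood at the 96.3 percentile of the tested genes, *Sin3a* at the 92.3 and *Ing2* at the 51.0. At 144 h the top 4 in WT kept their order (*Hdac1* 179, *Hdac2* 152, *Sin3a* 122, *Sap30* 82.0), and their libraries did not overlap. *Sin3b*, above *Suds3* at 0 h, came to 51.1 and overlapped its neighbours *Sap130* (54.9) and *Ing1* (50.5).

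**Figure D1:**
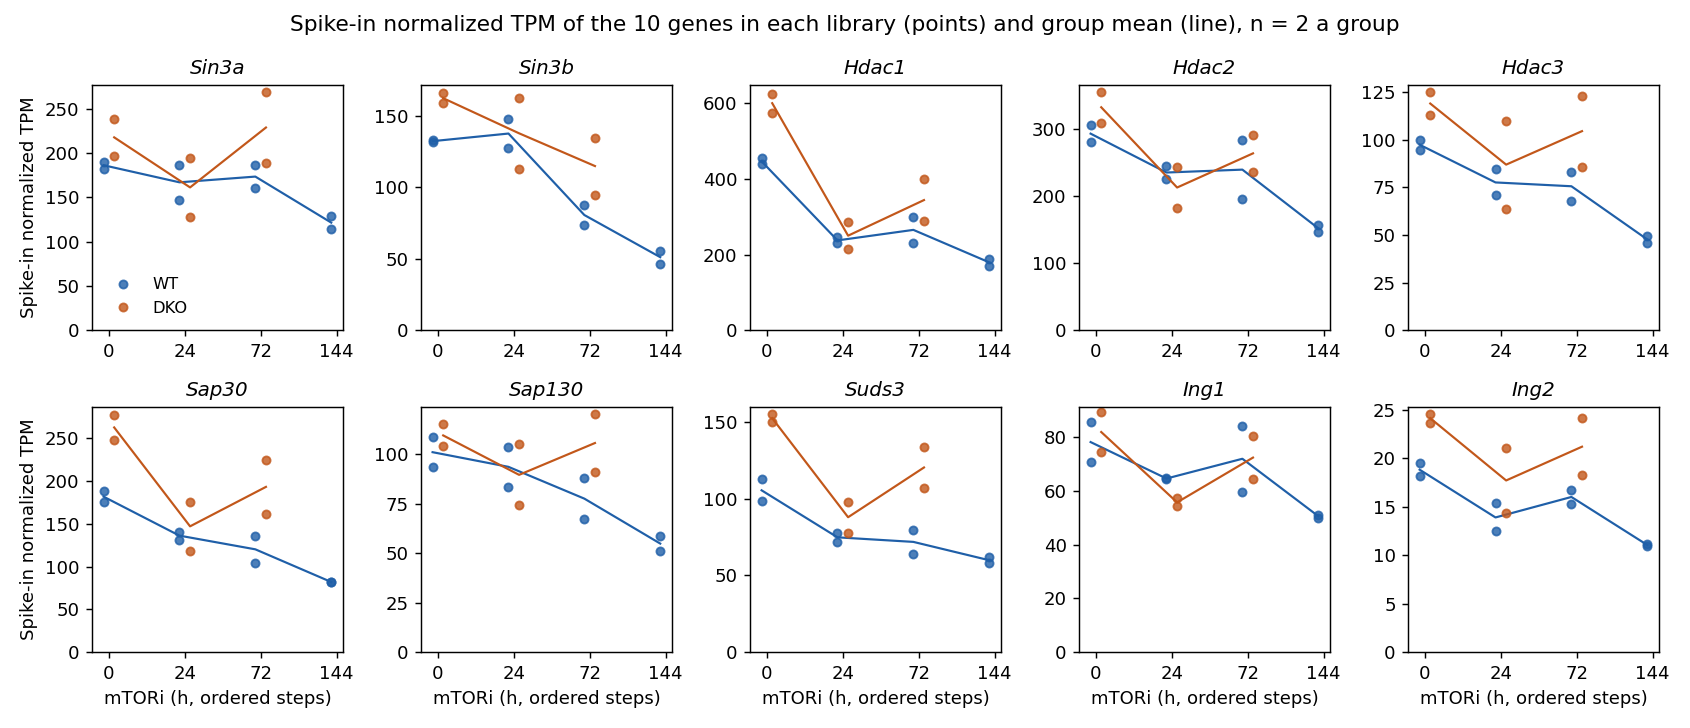
Spike-in normalized TPM (vertical axis, from 0) of the 10 genes at 0, 24, 72 and 144 h of mTORi (horizontal axis, evenly spaced steps), with 1 point per library and a line through the group means of WT (blue) and DKO (orange). In WT every gene has its lowest mean at 144 h, and *Hdac1* falls to 53.2% of its 0 h mean already at 24 h.

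*Sin3a* encodes the larger part of the SIN3 scaffold in these cells by RNA level. Its spike-in normalized TPM in WT were 183 and 190 at 0 h, 148 and 186 at 24 h, 186 and 161 at 72 h, then 129 and 114 at 144 h. In DKO they were 239 and 197 at 0 h, 194 and 128 at 24 h, then 269 and 189 at 72 h. Both WT libraries at 144 h and both DKO libraries at 24 h lay below the 0 h libraries of their genotype, and the other times overlapped with 0 h. The log2 change in WT was −0.17 ± 0.28 (SE) at 24 h, −0.11 ± 0.28 at 72 h and −0.61 ± 0.28 at 144 h (adjusted p = 0.068), above the median of all genes at each time. In DKO it was −0.46 ± 0.28 at 24 h and 0.055 ± 0.28 at 72 h. The 24 h value ranged from −0.75 without DKO 24 h replicate 1 to −0.16 without replicate 2. None of the *Sin3a* changes was called, but under a replicate block within genotype, a term for the replicate number in each genotype, *Sin3a* was called lower at 144 h in WT (adjusted p = 0.013).

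The plain TPM of *Sin3a* were higher at the later times. WT libraries held 86.5 and 90.0 at 0 h, 103 and 100.6 at 24 h, 113 and 108 at 72 h, then 120 and 114 at 144 h, with no overlap between any time and 0 h. DKO libraries held 84.8 and 82.9 at 0 h, 87.0 and 94.4 at 24 h, then 106 and 109 at 72 h, again without overlap. The log2 change was called at 72 h in WT (0.32 ± 0.072, adjusted p = 0.010), at 144 h in WT (0.41 ± 0.072, adjusted p = 0.0029) and at 72 h in DKO (0.36 ± 0.072, adjusted p = 0.0062). At 24 h it was 0.20 ± 0.072 in WT (adjusted p = 0.055) and 0.11 ± 0.072 in DKO. The share of *Sin3a* in the RNA thus increased while its spike-in normalized level in WT was lowest at 144 h.

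*Sin3b*, the paralog that also assembles deacetylase complexes, went another way. Its spike-in normalized TPM in WT were 133 and 132 at 0 h, 128 and 148 at 24 h, 88.0 and 73.3 at 72 h, then 55.8 and 46.5 at 144 h. In DKO they were 166 and 159 at 0 h, 163 and 113 at 24 h, then 135 and 94.97 at 72 h. The WT libraries at 24 h enclosed those at 0 h, and those at 72 and 144 h were all lower. *Sin3b* was called lower at 144 h in WT (log2 change −1.36 ± 0.27, adjusted p = 9.3e-04), the largest fall among the 10 genes and 0.53 below the median of all genes. It was not called at 24 h (0.053 ± 0.27) or 72 h (−0.71 ± 0.27, adjusted p = 0.10) in WT, or at 24 h (−0.26 ± 0.27) or 72 h (−0.52 ± 0.27) in DKO, where the 72 h value ranged from −0.77 without DKO 72 h replicate 1 to −0.27 without replicate 2. With the block it was called at 72 h in WT as well (adjusted p = 0.017).

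The turn of *Sin3b* after 24 h was clearer in plain TPM. WT libraries held 63.1 and 62.3 at 0 h, 88.9 and 79.8 at 24 h, 53.2 and 49.2 at 72 h, then 52.1 and 46.5 at 144 h. DKO libraries held 58.9 and 67.0, then 72.9 and 83.1, then 53.3 and 55.0. In both genotypes the 24 h libraries were the highest and the 72 h libraries lay below 0 h. *Sin3b* was called higher at 24 h in WT (0.42 ± 0.10, adjusted p = 0.011) and lower at 144 h (−0.34 ± 0.10, adjusted p = 0.031), while 24 h in DKO missed the threshold (0.30 ± 0.10, adjusted p = 0.051). The step from 24 to 72 h, compared after these values had been seen, was called in WT (−0.71 ± 0.10, adjusted p = 0.0039) and in DKO (−0.52 ± 0.10, adjusted p = 0.020), where 11% and 5.96% of all genes were called in either direction. It was the only one of the 10 genes called in that step. With spike-in factors the step was −0.77 ± 0.27 in WT (adjusted p = 0.24) and −0.26 ± 0.27 in DKO (adjusted p = 0.58) and no member was called, against 0.987% and 1.42% of all genes. In WT it was called with the factors under a replicate block within genotype (adjusted p = 0.032).

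**Figure D2:**
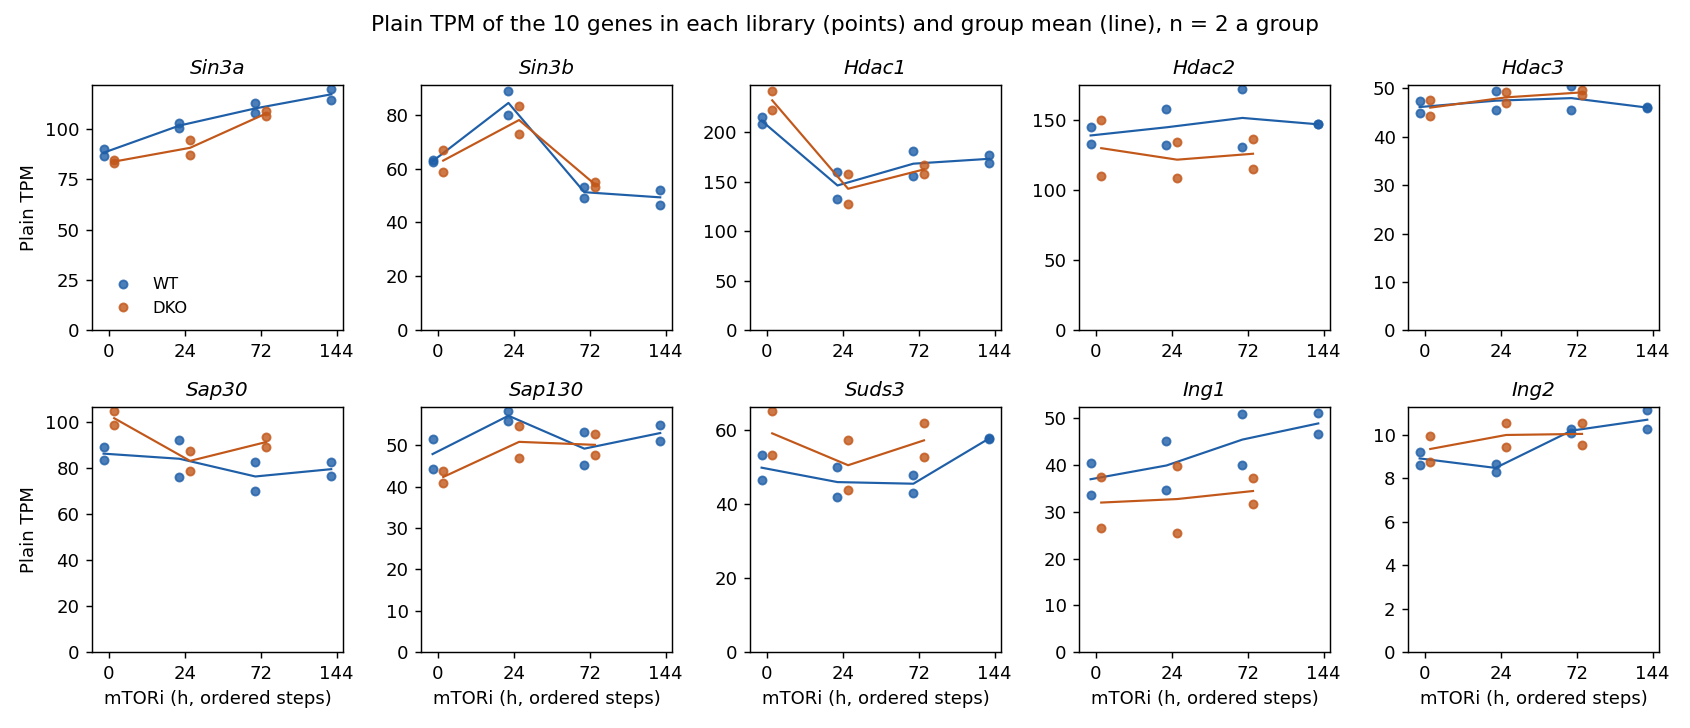
Plain TPM (vertical axis, from 0) of the same genes, with the same axes, points and lines as for the spike-in normalized values. *Sin3a* climbs from 86.5 and 90.0 to 120 and 114 in WT, *Sin3b* peaks at 24 h in both genotypes, and *Hdac1* is lower than at 0 h in every mTORi library.

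*Hdac1* encodes a deacetylase shared by the SIN3, NuRD and CoREST complexes and was the gene called lower at 24 h in both genotypes. Its spike-in normalized TPM in WT were 454 and 439 at 0 h, 229 and 246 at 24 h, 299 and 232 at 72 h, then 189 and 169 at 144 h. In DKO they were 626 and 575 at 0 h, 286 and 214 at 24 h, then 400 and 289 at 72 h. Every mTORi library lay below both 0 h libraries of its genotype. At 24 h *Hdac1* was called lower in WT (log2 change −0.91 ± 0.26, adjusted p = 0.031) and in DKO (−1.27 ± 0.26, adjusted p = 0.0029), which left 53.2% and 41.6% of the 0 h mean. At 72 h the changes were −0.76 ± 0.26 in WT (adjusted p = 0.071) and −0.82 ± 0.26 in DKO (adjusted p = 0.083), and at 144 h in WT the fall was called again (−1.31 ± 0.26, adjusted p = 8.6e-04). With the replicate block within genotype both 72 h changes were called (adjusted p = 0.010 in each). The WT call at 24 h was lost without either WT 0 h or either WT 24 h library (adjusted p between 0.083 and 0.21) and without either WT 144 h library (adjusted p = 0.055). The DKO call at 24 h held without each single library.

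Without the factors *Hdac1* was lower as well. In plain TPM the WT libraries held 215 and 208 at 0 h, 160 and 133 at 24 h, 181 and 156 at 72 h, then 177 and 169 at 144 h. DKO libraries held 222 and 242 at 0 h, 128 and 158 at 24 h, then 158 and 167 at 72 h. It was called lower at 24 h in WT (−0.54 ± 0.12, adjusted p = 0.0087), at 24 h in DKO (−0.70 ± 0.12, adjusted p = 0.0028) and at 72 h in DKO (−0.51 ± 0.12, adjusted p = 0.014). At 72 h (−0.33 ± 0.12, adjusted p = 0.075) and 144 h (−0.29 ± 0.12, adjusted p = 0.11) in WT it was not called, although no library reached its 0 h level.

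*Hdac2* encodes the paralog of HDAC1 that joins the same complexes. Its spike-in normalized TPM in WT were 305 and 280 at 0 h, 225 and 244 at 24 h, 283 and 195 at 72 h, then 157 and 147 at 144 h. In DKO they were 309 and 355, then 243 and 182, then 291 and 236. In WT all libraries but 1 at 72 h lay below those at 0 h, and in DKO all mTORi libraries did. It was called lower only at 144 h in WT (−0.94 ± 0.26, adjusted p = 0.0073), where all genes had a median of −0.83, and with the block also at 24 h in DKO (adjusted p = 0.023). In plain TPM the 144 h libraries (147 and 147) lay just above the 0 h libraries (145 and 133), and the difference was 0.081 ± 0.18 (adjusted p = 0.77).

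*Hdac3* (chromosome 18, 37935844 to 37954988, minus strand, ENSMUSG00000024454.15), the catalytic subunit of the NCoR and SMRT complexes, was the lowest of the 3 deacetylases. WT libraries held 100.1 and 94.8 spike-in normalized TPM at 0 h, 70.8 and 84.4 at 24 h, 83.3 and 67.9 at 72 h, then 49.3 and 46.0 at 144 h. DKO libraries held 125 and 113, then 110 and 63.9, then 123 and 85.9, with 0 and 72 h overlapping. It was called lower at 144 h in WT (−1.02 ± 0.29, adjusted p = 0.0084). This call and that of *Hdac2* were lost without WT 0 h replicate 1 (adjusted p = 0.052 and 0.057) and without WT 144 h replicate 2 (adjusted p = 0.070 for both). In plain TPM its WT mean at 144 h was 99.8% of that at 0 h, with a log2 change of −0.0029 ± 0.082.

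Because the factor of a library cancels in a ratio of 2 genes, the balance within gene pairs can be read without it. The ratio of *Hdac2* to *Hdac1* in WT was 0.672 and 0.639 at 0 h, 0.983 and 0.995 at 24 h, 0.949 and 0.841 at 72 h, then 0.829 and 0.866 at 144 h. In DKO it was 0.494 and 0.617 at 0 h, 0.850 in both libraries at 24 h, then 0.729 and 0.816 at 72 h. In both genotypes all libraries under mTORi lay above both 0 h libraries, and at each of the 3 shared times both DKO libraries lay below both WT libraries.

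The ratio of *Sin3b* to *Sin3a* in WT was 0.729 and 0.693 at 0 h, 0.864 and 0.793 at 24 h, 0.472 and 0.456 at 72 h, then 0.434 and 0.406 at 144 h. In DKO it was 0.695 and 0.808 at 0 h, 0.838 and 0.881 at 24 h, then 0.501 and 0.504 at 72 h. It was highest at 24 h and, from 72 h on, below every 0 h library of either genotype. The ratio of *Ing2* to *Ing1* lay between 0.192 and 0.276 in all 8 WT libraries and between 0.265 and 0.369 in the 6 DKO libraries, with WT times that overlapped one another. For WT at 144 h against 0 h a two-sided exact permutation test gave p = 0.333 for *Hdac2* to *Hdac1* and for *Sin3b* to *Sin3a*, which is the smallest p that 2 against 2 libraries can give, and p = 1 for *Ing2* to *Ing1*.

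**Figure D3:**
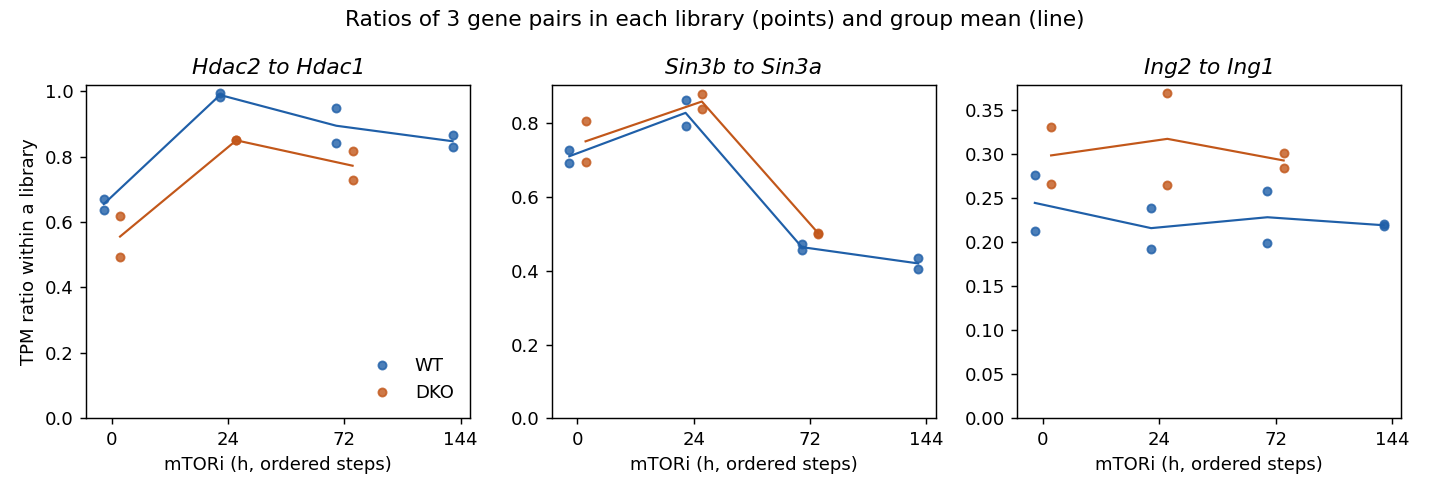
Ratio of TPM (vertical axis, from 0) of 3 gene pairs in each library at 0, 24, 72 and 144 h of mTORi (horizontal axis, evenly spaced steps), with points for libraries and lines through the means of WT (blue) and DKO (orange). *Hdac2* to *Hdac1* steps up at 24 h, *Sin3b* to *Sin3a* drops between 24 and 72 h to 0.464 in WT and 0.502 in DKO, and *Ing2* to *Ing1* shows no step.

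*Sap30*, whose product helps to stabilize the SIN3-HDAC core, lies on chromosome 8 from 57482707 to 57487860 on the minus strand (ENSMUSG00000031609.3). Its spike-in normalized TPM in WT were 188 and 176 at 0 h, 132 and 141 at 24 h, 136 and 104 at 72 h, then 81.6 and 82.5 at 144 h. In DKO they were 277 and 248 at 0 h, 176 and 118 at 24 h, then 225 and 161 at 72 h. Every mTORi library was below both 0 h libraries of its genotype. It was called lower at 24 h in DKO (−0.86 ± 0.27, adjusted p = 0.032) and at 144 h in WT (−1.14 ± 0.27, adjusted p = 0.0028). In plain TPM the same differences were −0.29 ± 0.11 (adjusted p = 0.087) and −0.12 ± 0.11 (adjusted p = 0.47), with the same sign and no call. The DKO call was lost without either DKO 0 h, either WT 0 h or either WT 144 h library or DKO 24 h replicate 2 (adjusted p between 0.051 and 0.23), and the WT call held without each single library.

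*Suds3*, a subunit that binds SIN3A and supports its deacetylase activity, followed a like course at a lower level. It lies on chromosome 5 from 117091680 to 117116113 on the minus strand (ENSMUSG00000066900.11). WT libraries held 113 and 98.2 spike-in normalized TPM at 0 h, 71.9 and 77.6 at 24 h, 79.4 and 64.2 at 72 h, then 61.7 and 58.1 at 144 h. DKO libraries held 150 and 155, then 97.8 and 77.9, then 134 and 107. No mTORi library reached the 0 h libraries of its genotype. *Suds3* was called lower at 24 h in DKO (−0.80 ± 0.26, adjusted p = 0.036) and at 144 h in WT (−0.80 ± 0.26, adjusted p = 0.016). The DKO call was lost without the same libraries as that of *Sap30* (adjusted p between 0.063 and 0.20), and the WT call without any 1 of the WT 0 h and 144 h libraries (adjusted p between 0.065 and 0.12). In plain TPM its change at 144 h was positive (0.21 ± 0.15, adjusted p = 0.33), and at 24 h in DKO it was −0.23 ± 0.15 (adjusted p = 0.32).

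*Sap130*, a further SIN3A-bound subunit on chromosome 18 (31634371 to 31723061, plus strand, ENSMUSG00000024260.13), held 109 and 93.3 spike-in normalized TPM in WT at 0 h, 83.7 and 104 at 24 h, 87.8 and 67.3 at 72 h, then 58.8 and 50.9 at 144 h. In DKO it held 115 and 104, then 105 and 74.1, then 120 and 90.9, which overlap between times. The call at 144 h in WT (−0.87 ± 0.28, adjusted p = 0.015) was its only one, and in plain TPM the difference was 0.15 ± 0.12 with no call. The call was lost without any 1 of the WT 0 h and 144 h libraries (adjusted p between 0.053 and 0.13).

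*Ing1* and *Ing2* encode PHD-finger proteins that bind trimethylated lysine 4 of histone H3 and bring the SIN3 complex there. *Ing1* (chromosome 8, 11555571 to 11563251, plus strand, ENSMUSG00000045969.8) held 85.4 and 70.7 spike-in normalized TPM in WT at 0 h, 64.8 and 64.2 at 24 h, 84.2 and 59.5 at 72 h, then 49.9 and 51.1 at 144 h. *Ing2* (chromosome 8, 47667178 to 47675556, minus strand, ENSMUSG00000063049.4) held 18.2 and 19.5, then 12.5 and 15.3, then 16.7 and 15.3, then 10.98 and 11.1. Both were lowest at 144 h, without overlap with 0 h, and neither was called there (*Ing1* −0.61 ± 0.27, adjusted p = 0.063, and *Ing2* −0.72 ± 0.31, adjusted p = 0.057). In plain TPM both differences were positive (0.40 ± 0.23 and 0.24 ± 0.11) and not called. Under a replicate block within genotype both were called lower at 144 h with the factors (adjusted p = 0.017 and 0.0085). In DKO *Ing1* held 74.4 and 89.1, then 57.2 and 54.1, then 80.3 and 64.3, and *Ing2* held 24.6 and 23.7, then 21.1 and 14.3, then 24.2 and 18.2.

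Counted over the 10 genes, WT at 24 h had 1 gene called lower (*Hdac1*), where 8.73% of all tested genes were called lower. WT at 72 h had 0, against 7.6% of all genes, and 4 members had an unadjusted p under 0.05, against 25.7% of all genes. At 144 h 7 were called lower (*Sin3b*, *Hdac1*, *Hdac2*, *Hdac3*, *Sap30*, *Sap130* and *Suds3*), where 50.5% of all genes were. The median change of the 10 genes was −0.91, near the −0.83 of all genes, and 4 of the 10 lay above it. With a replicate block within genotype, all 10 genes were called lower at 144 h, against 66.3% of all genes, and 4 at 72 h (*Sin3b*, *Hdac1*, *Sap30* and *Suds3*), against 25.4%. With 1 library left out, the changes of the 10 genes at 144 h stayed between −1.49 and −0.48. Calls of several genes were lost without single WT 0 h or 144 h libraries.

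DKO at 24 h had 3 genes called lower (*Hdac1*, *Sap30* and *Suds3*), against 18.7% of all genes. DKO at 72 h had 0, against 2.95% of all genes, and 1 member (*Hdac1*) had an unadjusted p under 0.05, against 19.7% of all genes. No member was called higher on the spike-in scale in any comparison with 0 h. Replicates 1 and 2 of DKO at 24 h had spike-in factors of 2.24 and 1.36. With 1 library left out, the DKO change at 24 h ranged from −1.48 to −1.07 for *Hdac1* and from −1.14 to −0.58 for *Sap30*. That of *Suds3* ranged from −0.96 to −0.63. The part of the factors in this spread was not tested. WT and DKO comparisons with 0 h each share their 0 h libraries.

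In plain TPM, where calls are given in either direction, WT at 24 h had 2 members called (*Sin3b* higher and *Hdac1* lower, against 29.9% of all genes), WT at 72 h had 1 (*Sin3a* higher, against 24%) and WT at 144 h had 2 (*Sin3a* higher and *Sin3b* lower, against 27.3%). DKO at 24 h had 1 (*Hdac1* lower, against 24.9%) and DKO at 72 h had 2 (*Sin3a* higher and *Hdac1* lower, against 26.3%). With the replicate block within genotype the plain TPM counts were 4, 3 and 4 in WT, where 37.1%, 32% and 35.5% of all genes were called, and 3 in DKO at 72 h, where 35.8% were. In both fits the members' shares were near or below those of all genes. At 144 h the split of calls moved from 0 higher and 7 lower with the factors to 1 and 1 without them.

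**Figure D4:**
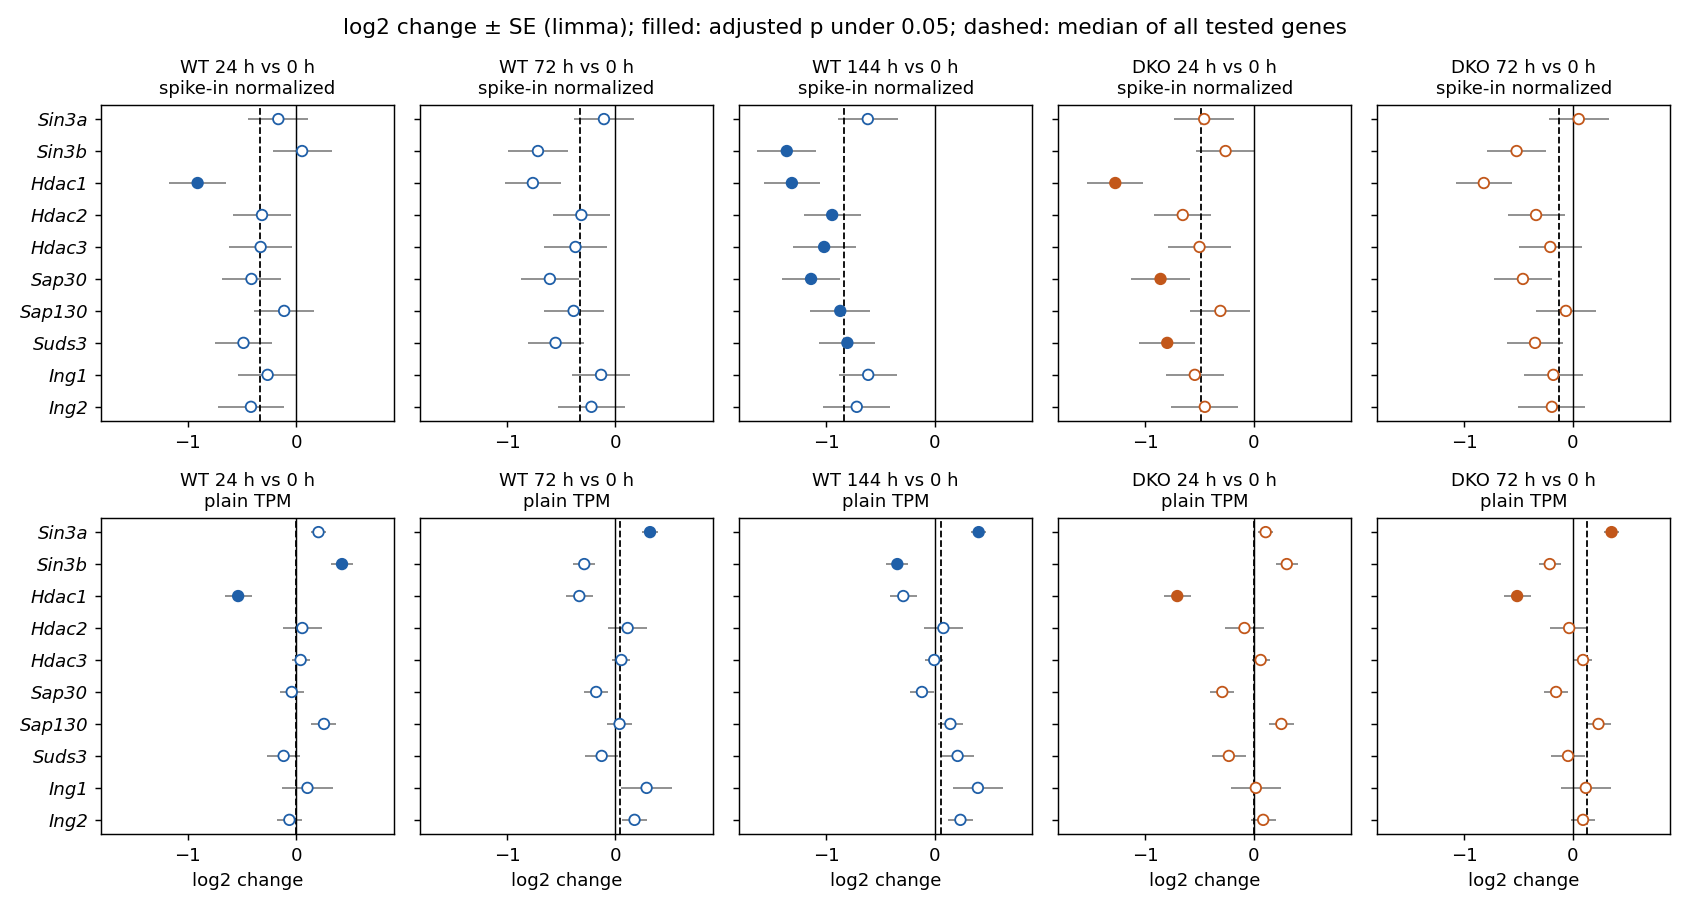
log2 change against 0 h (horizontal axis) of each gene in 5 comparisons, with SE bars, in spike-in normalized TPM (top) and plain TPM (bottom), where filled points have an adjusted p under 0.05, the solid line is 0 and the dashed line is the median of all tested genes. *Hdac1* is left of the dashed line in all 10 panels, *Sin3a* right of it in all 10, and *Sin3b* crosses from right at 24 h to left at 72 h.

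Between genotypes none of the 10 genes was called. At 0 h the 10 differences (DKO minus WT) were positive on the spike-in scale, with a median of 0.29 against 0.29 for all genes, but in plain TPM 5 of the 10 were below 0, with a median of −0.00074. With the factors 0.0439% of all genes were called in either direction. The smallest adjusted p of the 10 genes was 0.60 and none of them had an unadjusted p under 0.05. At 24 h the changes ran from −0.21 to 0.31, with 0.0439% of all genes called. At 72 h they ran from 0.021 to 0.73, with a median of 0.41 against 0.49 for all genes, of which 0.329% were called. With the factors, *Suds3* (0.73 ± 0.26, adjusted p = 0.17) and *Sap30* (0.67 ± 0.27, adjusted p = 0.19) had unadjusted p under 0.05, as 23% of all genes did. With 1 library left out these changes ranged from 0.58 to 0.89 and from 0.43 to 0.91. Whether *Suds3* was called depended on single libraries. In plain TPM the median of the 10 genes at 72 h was 0.0041, and 5 of them were below 0. With the factors the 95% intervals of the 10 genes at 72 h lay within −0.54 to 1.27, so a missing call does not show equal levels.

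The DKO response minus the WT response lay between −0.44 and −0.031 at 24 h and between −0.058 and 0.32 at 72 h. None of the 10 genes was called in either, where 0.00548% and 0% of all genes were, and none had an unadjusted p under 0.05. *Hdac1* differed by −0.36 ± 0.37 at 24 h and *Sin3a* by 0.16 ± 0.39 at 72 h. The 95% intervals of single genes reached down to −1.24 (*Sap30* at 24 h) and up to 1.14 (*Sap130* at 72 h).

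Across the 14 libraries, on log2 values centred on each library's median, the genes whose pattern was most like that of *Sin3a* were *Zswim6* (Pearson r = 0.94), *St6galnac3* (0.92) and *Grk6* (0.91). In plain TPM all 3 had higher WT means at 144 h than at 0 h, *Grk6* from 64.3 ± 0.368 to 119 ± 1.62 (SD, n = 2) and *Zswim6* from 6.88 ± 0.370 to 15.7 ± 0.595. Among the members *Ing1* was most like *Sin3a* (r = 0.74), then *Hdac2* (0.46) and *Sap130* (0.45). *Sin3b* and *Sap30* had the lowest values, both at −0.43. The libraries share time points and a genotype, so these r are descriptions.

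The other genes of these pathways were taken from lists of SIN3 partners (14 genes), other class I deacetylase complexes (27), other deacetylases (14 tested, *Hdac9* being too low) and acetyltransferases (10). At 144 h in WT, where 50.5% of all genes were called lower, 8 of the 14 other SIN3 genes were called lower and 0 higher, with a median of −0.80. The lowest was *Sap18* (−1.58 ± 0.31, adjusted p = 9.1e-04), a SIN3-associated protein that also joins splicing complexes, and the highest was *Arid4b* (−0.37 ± 0.33, adjusted p = 0.35). Of the 27 genes of other class I complexes 17 were called lower and 1 higher, with a median of −0.84.

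That gene was *Phf21a*, which encodes the CoREST subunit that binds unmethylated lysine 4 of histone H3. It was called higher at 72 h (0.97 ± 0.27, adjusted p = 0.033) and 144 h (0.99 ± 0.27, adjusted p = 0.0063) in WT and had a like value at 72 h in DKO (0.85 ± 0.27, adjusted p = 0.083). *Gps2*, of the NCoR complex, was called higher at 24 h in WT (1.01 ± 0.30, adjusted p = 0.039) and stood at −0.017 ± 0.30 at 144 h. *Mbd2*, the methyl-CpG-binding NuRD subunit, was the lowest of its list at 144 h (−1.55 ± 0.30, adjusted p = 7.4e-04).

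Among other deacetylases 5 of 14 were called lower at 144 h and 0 higher, with a median of −0.56, from *Sirt2* (−1.62 ± 0.33, adjusted p = 0.0011) to *Hdac11* (0.30 ± 0.41, adjusted p = 0.54). Of the 10 acetyltransferases 6 were called lower and 0 higher, with a median of −0.77, from *Hat1* (−1.73 ± 0.34, adjusted p = 8.3e-04), which acetylates newly made histone H4, to *Kat6b* (−0.46 ± 0.30, adjusted p = 0.20). Without the factors 27.3% of all genes were called at 144 h in either direction. The split of calls then turned, to 2 lower and 4 higher of the other SIN3 genes and 3 and 9 of the other class I complexes. It was 1 and 5 for the other deacetylases and 1 and 5 for the acetyltransferases. The medians of the 4 lists were then 0.20, 0.16, 0.22 and 0.23, against 0.055 for all genes and 0.11 for the 10 genes. At 24 h in DKO 4 of 14, 8 of 27, 0 of 14 and 1 of 10 were called lower, against 18.7% of all genes, and at 72 h 0, 1, 0 and 0, against 2.95%. None was called between the genotypes with the factors.

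**Figure D5:**
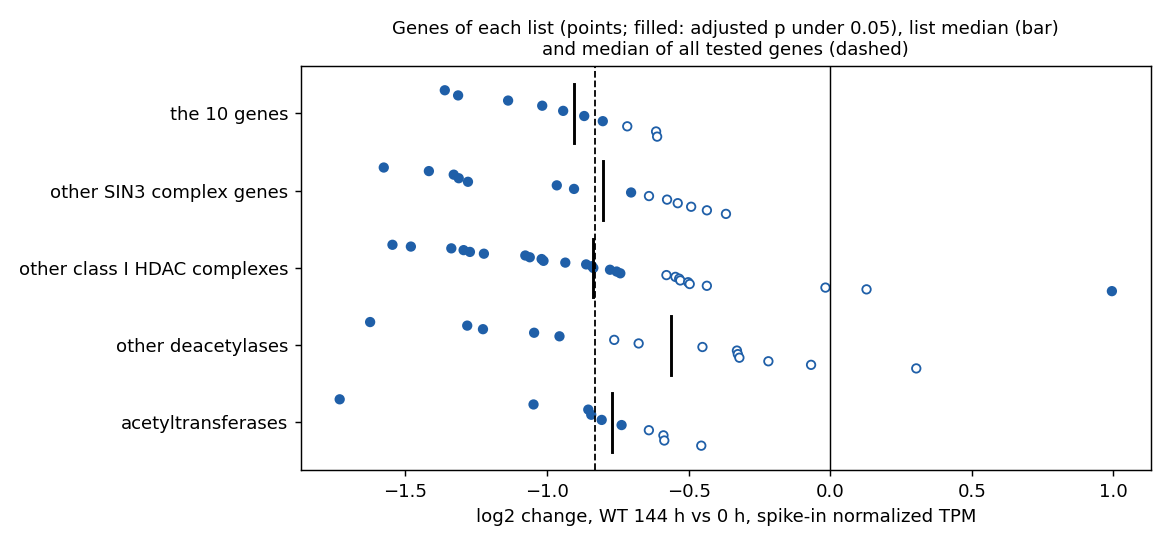
log2 change at 144 h against 0 h in WT, in spike-in normalized TPM (horizontal axis), of the genes of 5 lists (rows), where filled points have an adjusted p under 0.05, the bar is the list's median and the dashed line the median of all tested genes. The 10 genes spread from −1.36 to −0.61 around the dashed line at −0.83, and *Phf21a* is the single filled point right of 0.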

How the data were processed

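The authors trimmed reads with cutadapt (version 2.4), aligned them to mm10 with STAR (2.7.3a per the labels) and quantified GENCODE VM19 genes with StringTie (2.0 per the labels). The paper's methods give other versions of STAR and StringTie. The deposited TPM sum to 1000000 in each library, with no counts and no ERCC entries. Entries with the same identifier were summed. Spike-in factors are not in the deposited tables. Each was taken as the median ratio of the study's supplementary normalized table (1993 genes used) to the deposited TPM over genes of at least 1 TPM (482 to 539 a library, interquartile range of the ratio at most 0.000167% of it), so the spike-in scale rests on the authors' normalization. After a filter on the mean spike-in normalized TPM (1 or more), genes were tested on log2(TPM + 1) in limma 3.58.1 (R 4.3.3) with a mean-variance trend and no block. The fit was tested on simulated data, which held no replicate effect. The pseudocount understates changes of low genes. Adjusted p are Benjamini-Hochberg over 18232 genes in each comparison. Ratios used scipy 1.17.1.

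The labels only number the replicates. The study calls them biological, with independent repeats, and processed all time points of a replicate in parallel. Deviations of same-numbered libraries correlated at 0.222 to 0.341 in DKO (over 0.1 in 3 of 3 pairs of times), at 0.0622 to 0.398 in WT (5 of 6), and below 0 in 10 of 12 pairs across genotypes. The members, lists and tests were chosen with earlier results of these data known. Named were all members, the 3 genes most like *Sin3a* in pattern, the highest and lowest of each list at 144 h, and list genes called between genotypes or called higher. Alternatives were the scaling, pseudocount, filter, variance model, block, genotypes fitted apart and leaving out each library.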

Additional observations from a re-analysis of the deposited data

How the results depend on the processing

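Plain TPM gave 2, 1 and 2 called members in WT at 24, 72 and 144 h and 1 and 2 in DKO at 24 and 72 h, and median-centred values gave 2 in WT at 72 and 144 h, 1 in DKO at 24 h and 2 in DKO at 72 h. Of all genes, 24% to 29.9% were called in plain TPM and 26.2% to 30.7% after centring. Among the changes against 0 h given singly, signs turned in plain TPM, with or without the block, for *Sin3a* in WT at 24 (0.20), 72 (0.32) and 144 h (0.41), for *Hdac2* (0.081), *Sap130* (0.15), *Suds3* (0.21), *Ing1* (0.40) and *Ing2* (0.24) in WT at 144 h, and for *Sin3a* (0.11) and *Sin3b* (0.30) in DKO at 24 h. Of the other changes, those of *Sap130* and *Ing1* turned at every time in both genotypes, those of *Ing2* at all but WT 24 h, those of *Hdac3* at all but WT 144 h and those of *Hdac2* in WT at 24 and 72 h, and none of these was called in plain TPM. Among the changes given singly, signs turned with median-centred values for *Sin3a* in WT at 24 (0.10), 72 (0.18) and 144 h (0.22), *Suds3* (0.032), *Ing1* (0.22) and *Ing2* (0.12) in WT at 144 h, and *Sin3a* (0.0030) and *Sin3b* (0.20) in DKO at 24 h. By construction these scalings remove the factor. Without the filter on low values (2.73% of all genes called), or without the mean-variance trend (9.12%), WT at 24 h had 0 calls. Without the trend DKO at 24 h had 1 (16.7% of all genes). The cause was not tested. Genotypes fitted separately gave 4 in WT at 72 h (26.5% of all genes) and 1 in DKO at 24 h (4.72%). A replicate block across all libraries gave 1 in WT at 72 h (8.55% of all genes). The replicate block within genotype gave 4 in WT at 72 h (28.3%) and 1 in DKO at 72 h (18.5%). It also called *Hdac2* at 24 h in DKO and turned no sign. Plain TPM with this block, chosen after seeing the data, gave 4, 3 and 4 in WT (37.1%, 32% and 35.5% of all genes) and 3 in DKO at 72 h (35.8%).

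Leaving out 1 library gave 0 to 1 calls in WT at 24 h, 0 to 2 at 72 h, 3 to 10 at 144 h, 1 to 6 in DKO at 24 h, 0 to 1 in DKO at 72 h and 0 to 1 for DKO against WT at 72 h, and 0 for the other genotype and response comparisons. With 1 library left in a group it was assumed to vary like the others. The share of all tested genes called without each library is not given here. Whether the calls of the 10 genes depended more on single libraries than those of other genes was therefore not tested. Among the changes given singly, signs turned within −0.33 to 0.0011 for *Sin3a* and −0.054 to 0.16 for *Sin3b* in WT at 24 h, −0.21 to 3.3e-05 for *Sin3a* in WT at 72 h, −0.20 to 0.31 for *Sin3a* in DKO at 72 h, −0.52 to 0.0043 for *Sin3b* in DKO at 24 h and −0.52 to 0.0048 for its step from 24 to 72 h in DKO. The 144 h minus 0 h ratio difference ranged from 0.174 to 0.211 for *Hdac2* to *Hdac1*, −0.309 to −0.272 for *Sin3b* to *Sin3a* and −0.057 to 0.0061 for *Ing2* to *Ing1*. *Hdac1* in DKO at 24 h was called under every alternative run. TPM carry no depth, so 2 libraries a group set the precision.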

Other observations

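The spike-in factors of all 14 libraries equalled 76 divided by a whole number between 27 and 76, within 0.001 of a whole number. A step of 1 in that number changes a factor by between 1.32% and 3.70%. Both WT 0 h libraries had the same factor, and the factor of WT 144 h replicate 2 was 1, so that its plain and spike-in normalized TPM are identical. How the factors were made was not tested.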
